A study of Homo sapiens with 2 samples.

Results

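The genes of the mitochondrial ribosomal proteins, which carry symbols of MRPL (large subunit) or MRPS (small subunit) and a number, were examined for peaks of N6-methyladenosine (m6A) in the human liver cancer line HCCLM3. Members were all protein-coding RefSeq genes whose symbol is MRPL or MRPS, a number and at most a letter ending. There were 77 of them among 20037 protein-coding genes on the main chromosomes, 49 named MRPL and 28 named MRPS. The mitochondrial ribosome translates the few membrane proteins of the respiratory chain that mitochondrial DNA encodes. Its RNAs come from mitochondrial DNA, while its proteins are encoded in the nucleus, made on cytosolic ribosomes and imported, so their mRNAs are open to the nuclear m6A writers. In mRNA, m6A is known to lie mostly near stop codons and in 3' UTRs, where cytoplasmic proteins such as YTHDF2 bind it.

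The series asks how CRTC2, a coactivator of CREB, acts together with YTHDF2 on methylated mRNAs in liver cancer. The cells were of wild-type genotype by the labels, with no treatment named, and 1 m6A-RIP (antibody-captured) library was compared with 1 input library. Neither had a replicate, so no test between conditions or genes was made and every value describes these libraries. Among hepatocyte markers, HNF4A and APOB held a peak and ALB, AFP, APOA1, TTR and SERPINA1 held none, which says nothing of their levels, since a peak list gives none.

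Each of the 39801 peaks has a fold, the authors' linear ratio of RIP to input at its summit, and a q-value from their peak caller. A gene was counted as carrying a peak when the summit lay in its RefSeq span, exons and introns alike. Each fold is followed in parentheses by its exact 95% Poisson interval, taken over the RIP fragments at the summit (recovered from the fold and p-value) while the input level was held fixed. That level is the mean expected from input behind the caller's Poisson p-value, and need not equal the input count at the summit. Its lowest value among members, 0.246, recurred and was the median of their intron peaks. Where an interval follows a percentage, it is a 95% Wilson interval. All these intervals account for counting error alone, and reads lacking molecular identifiers need not be separate molecules. Positions are on hg38.

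Most mitochondrial ribosomal protein genes carried a peak when peaks of any q-value were counted, but not when a q-value under 0.05 was required. In all, 45 of the 77 genes (58.4%, 47.3 to 68.8) held 66 peaks, where 49.3% of all protein-coding genes held one. A peak with a q-value under 0.05 lay in 38 genes (49.4%, 38.5 to 60.3) against a background of 39.0%. At a q-value under 1e-5 there were 27 genes (35.1%, 25.3 to 46.2) against 28.5%, and with a fold of at least 4 there were 21 (27.3%, 18.6 to 38.1) against 30.9%. These 4 intervals hold the background share. With at least 10 RIP fragments at the summit, the interval lay above it, at 42 genes (54.5%, 43.5 to 65.2) against 39.3%. A lone peak was found in 31 genes, 2 peaks in 8, 3 in 5 and 4 in MRPS31.

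The peaks in these genes rested on more fragments than most. A median of 39.5 RIP fragments lay at a member's summit (range 2 to 173), compared with 12 over the 30222 peaks in protein-coding genes. The median input level was 4 fragments against 1. Of the 66 peaks, 48 (72.7%) had a q-value under 0.05, compared with 53.7% of peaks in protein-coding genes. The median fold was 3.63 (quartiles 2.73 to 5.57) against 3.38, and the median of each gene's highest fold was 3.82 (2.92 to 6.21) against 4.73 (3.38 to 6.64).

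**Figure D1:**
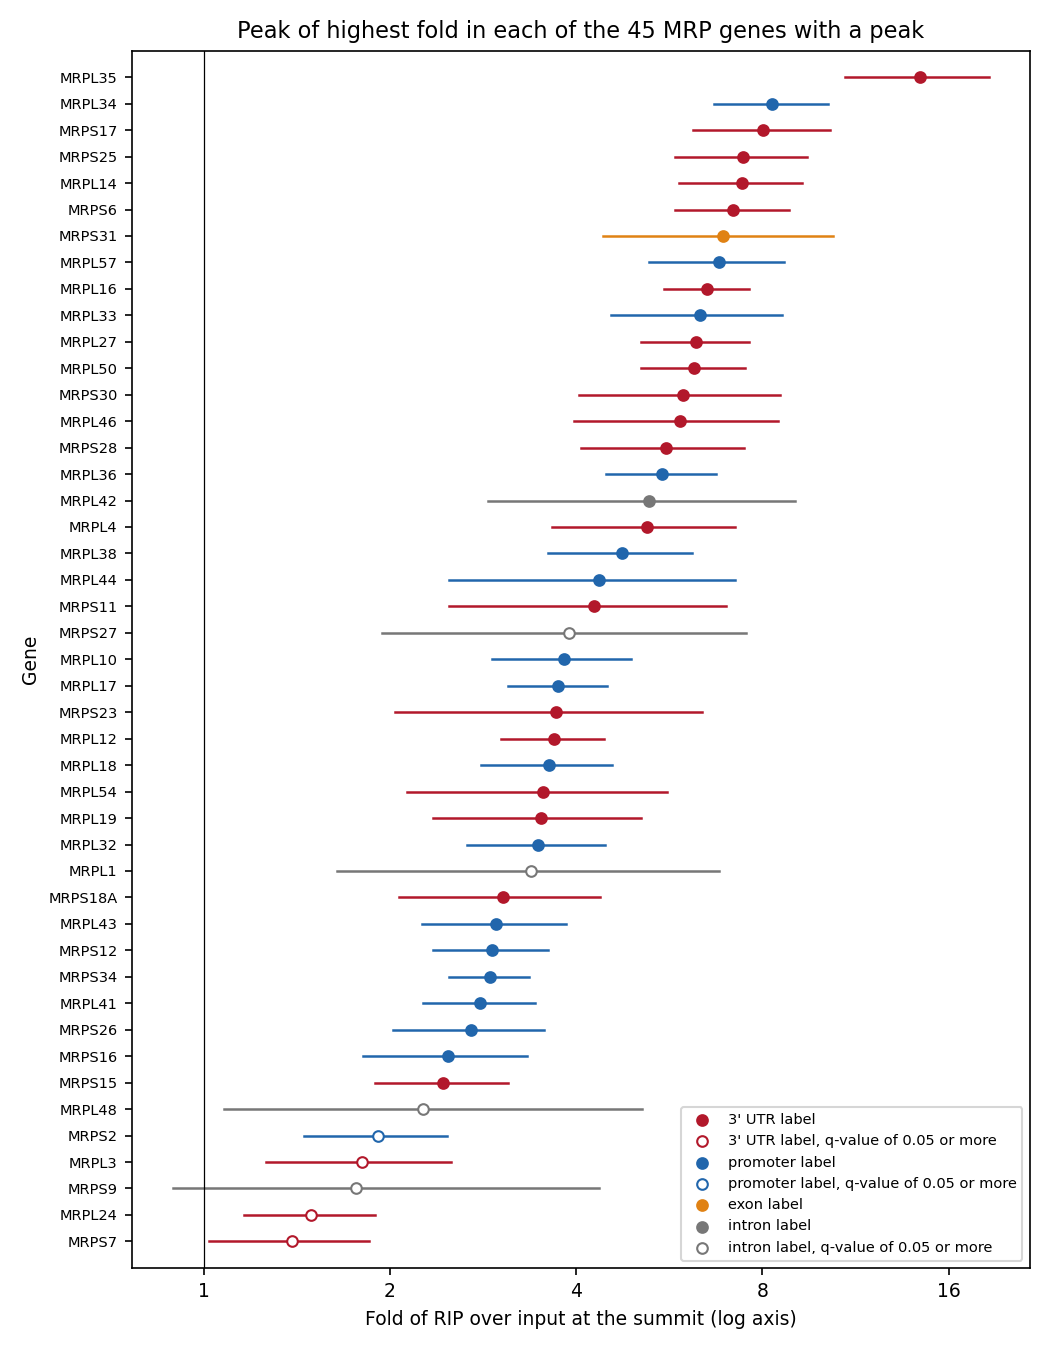
Fold of RIP over input (log axis) of the highest peak in each of the 45 mitochondrial ribosomal protein genes with a peak. Points are the authors' folds, lines the exact 95% Poisson intervals on RIP fragments, colours the deposited region label, and open points peaks with a q-value of 0.05 or more. MRPL35 stands at 14.4, and the interval of no other gene in the plot reaches that value.

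Among the large-subunit genes, MRPL35 had by far the highest fold. Its peak, on chromosome 2 between 86212458 and 86212961 and labelled 3' UTR, reached 14.4 (10.9 to 18.6) on 54 RIP fragments over an input level of 1.48. The summit was 1122 bp from the 3' end of the gene. MRPL34, whose product is a small protein with a bacterial counterpart, followed at 8.30 (6.69 to 10.2) near its 3' end (chromosome 19, 17306389 to 17306863), with a weaker peak of 4.03 (2.26 to 6.81, 11 fragments) where it overlaps ABHD8. The intervals of the MRPL35 and the stronger MRPL34 peak do not overlap.

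A further set of large-subunit genes had folds between 5 and 8 on good depth. MRPL14 reached 7.41 (5.86 to 9.26, 75 fragments) under a 3' UTR label (chromosome 6, 44113604 to 44114092). MRPL57 had a fold of 6.80 (5.25 to 8.67) at chromosome 13, 21177094 to 21177585. For MRPL16, which like its bacterial counterpart sits near the tRNA sites of the subunit, the fold was 6.52 (5.55 to 7.60) on 159 fragments, with the highest −log10 q-value of the family, 44.4 (chromosome 11, 59806167 to 59806670). MRPL27, a relative of a bacterial protein next to the peptidyl transferase centre, had 6.26 (5.09 to 7.62) at chromosome 17, 50367694 to 50368127. MRPL50 had 6.21 (5.10 to 7.5) at chromosome 9, 101390004 to 101390652. The intervals of these 5 genes overlap one another, so the data do not order them.

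MRPL33 held 2 peaks, of fold 6.34 (4.56 to 8.62) at 37.3% of the gene span and 3.65 (2.69 to 4.86) in its 3' UTR. MRPL46 had a fold of 5.89 (3.97 to 8.48), MRPL36 5.51 (4.47 to 6.74), MRPL4, whose bacterial counterpart lines the exit tunnel, 5.21 (3.66 to 7.22) beside a weaker peak of 2.43 (1.63 to 3.53), and MRPL38 4.74 (3.60 to 6.15). MRPL44, a protein with a ribonuclease III fold, held 2 peaks of 4.35 (2.49 to 7.22, 12 fragments) and 3.03 (2.21 to 4.08, 41 fragments). MRPL12 and MRPL10, the counterparts of the bacterial stalk proteins that recruit translation factors, had folds of 3.68 (3.02 to 4.44, 106 fragments) and 3.82 (2.93 to 4.91, 58 fragments). Their intervals overlap almost wholly.

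The 3 MRPL genes whose highest fold was lowest, among those with a q-value under 0.05, had high input. MRPL41 had a fold of 2.80 (2.26 to 3.43) over an input level of 20, MRPL43 one of 2.97 (2.25 to 3.85) over 11, and MRPL32, whose maturation depends on the m-AAA protease of the inner membrane, one of 3.47 (2.66 to 4.46) over 10. MRPL17 had 3.74 (3.10 to 4.48) over 19 and MRPL18 had 3.61 (2.81 to 4.57) over 11. The other genes that passed were MRPL54, with a fold of 3.54 (2.13 to 5.62), MRPL19, with 3.51 (2.35 to 5.09), and MRPL42, whose peak in intron 5 of 5 had 5.24 (2.88 to 9.05) on 10 fragments.

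Among the genes named for the small subunit, MRPS17 and MRPS25 led. MRPS17, a counterpart of a bacterial protein that binds ribosomal RNA, reached 8.03 (6.19 to 10.3, 61 fragments) under a 3' UTR label at chromosome 7, 55955028 to 55955447. MRPS25 held 3 peaks with a q-value under 0.05. The strongest, at chromosome 3, 15052107 to 15052541 and labelled 3' UTR, reached 7.44 (5.79 to 9.44, 65 fragments). Despite that label its summit lay at 56.3% of the gene span, 10087 bp from the 3' end. The others had 6.82 (5.12 to 8.93) at 15042256 to 15043361 and 3.59 (2.09 to 5.87) in exon 3 of 5. The peak of fold 6.82 lay where MRPS25 overlaps NR2C2, a nuclear receptor gene, and the table carries no strand, so the source of these fragments cannot be told apart.

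MRPS31 held 4 peaks, more than any other member, and 2 of them had a q-value under 0.05 in the first 20% of its span, where MRPL14 and MRPL43 had 1 each. A peak in exon 2 of 7 (chromosome 13, 40766616 to 40766997) had a fold of 6.92 (4.42 to 10.4, 20 fragments). A peak 311 bp from the gene's start, from 40770693 to 40771050, had 6.71 (3.84 to 11.1, 12 fragments). The other two rested on 3 and 4 fragments and had q-values above 0.05. MRPS28, the longest member at 111543 bp, held 3 peaks, of 5.59 (4.08 to 7.48) in its 3' UTR and of 3.69 (2.07 to 6.24, 11 fragments) and 2.35 (1.12 to 5.32, 3 fragments) in introns. MRPS11 had 1 of 4.28 (2.49 to 6.99, 13 fragments).

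MRPS30 and MRPS18A carry small-subunit names but their proteins are part of the large subunit. Their 3' UTR peaks had folds of 5.96 (4.04 to 8.53, 27 fragments) and 3.05 (2.07 to 4.37, 27 fragments). The intervals overlap slightly, and the MRPS18A summit lay in RSPH9 as well.

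The decoding-site protein gene MRPS12 had a fold of 2.92 (2.35 to 3.60) on 85 fragments. MRPS34, a gene mutated in some cases of Leigh syndrome, had the most fragments of the family, 173, with a fold of 2.90 (2.49 to 3.36) over an input level of 37.6. MRPS26 held 2 peaks of 2.70 (2.02 to 3.55) and 2.17 (1.71 to 2.72), and MRPS16 had 1 of 2.48 (1.81 to 3.33). MRPS15 reached 2.44 (1.89 to 3.10) and MRPS23 3.71 (2.04 to 6.40, 10 fragments). MRPS27, a pentatricopeptide repeat protein, had a 3' UTR peak of 2.50 (1.87 to 3.27, 49 fragments) as its only peak with a q-value under 0.05. All of these but MRPS23 combined a fold under 3 with an input level of at least 10.

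Peaks in 7 genes did not reach a q-value under 0.05. MRPS2 came nearest with a fold of 1.91 (1.45 to 2.47, 55 fragments) and a −log10 q-value of 1.29. MRPL3, MRPL24 and MRPS7 had 3' UTR peaks of 1.80 (1.26 to 2.51), 1.49 (1.16 to 1.89) and 1.39 (1.02 to 1.85), each on at least 32 fragments and with a q-value of 1, and for MRPL3 another number of fragments met the values as well. MRPL1, MRPL48 and MRPS9 held intron peaks alone, on 2 to 5 fragments. Of the 14 intron-labelled peaks in the family, 12 rested on at most 6 fragments and only those in MRPL42 and MRPS28 had a q-value under 0.05.

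The peaks lay towards the 3' ends of the genes. Of 65 peaks in genes whose strand was known, 32 (49.2%) had their summit in the last 20% of the gene span and 8 (12.3%) in the first 20%. Over all peaks in protein-coding genes the shares were 32.8% and 17.8%. Since these genes are short, with a median span of 8618 bp against 24115 bp, genes with a span under 20 kb are the closer comparison. There 25 of 40 member peaks (62.5%) and 39.4% of 4295 peaks in all protein-coding genes lay in the last 20%. Summits within 1 kb of the 3' end made up 57.5% and 28.5%. Spans still differed within this set. Genes with a peak under 5 kb, from 5 to 10 kb and from 10 to 20 kb numbered 14, 12 and 9 members, against 635, 822 and 1435 of all. A distance of 1 kb is a larger part of a shorter gene, and the part of span in these shares was not tested.

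**Figure D2:**
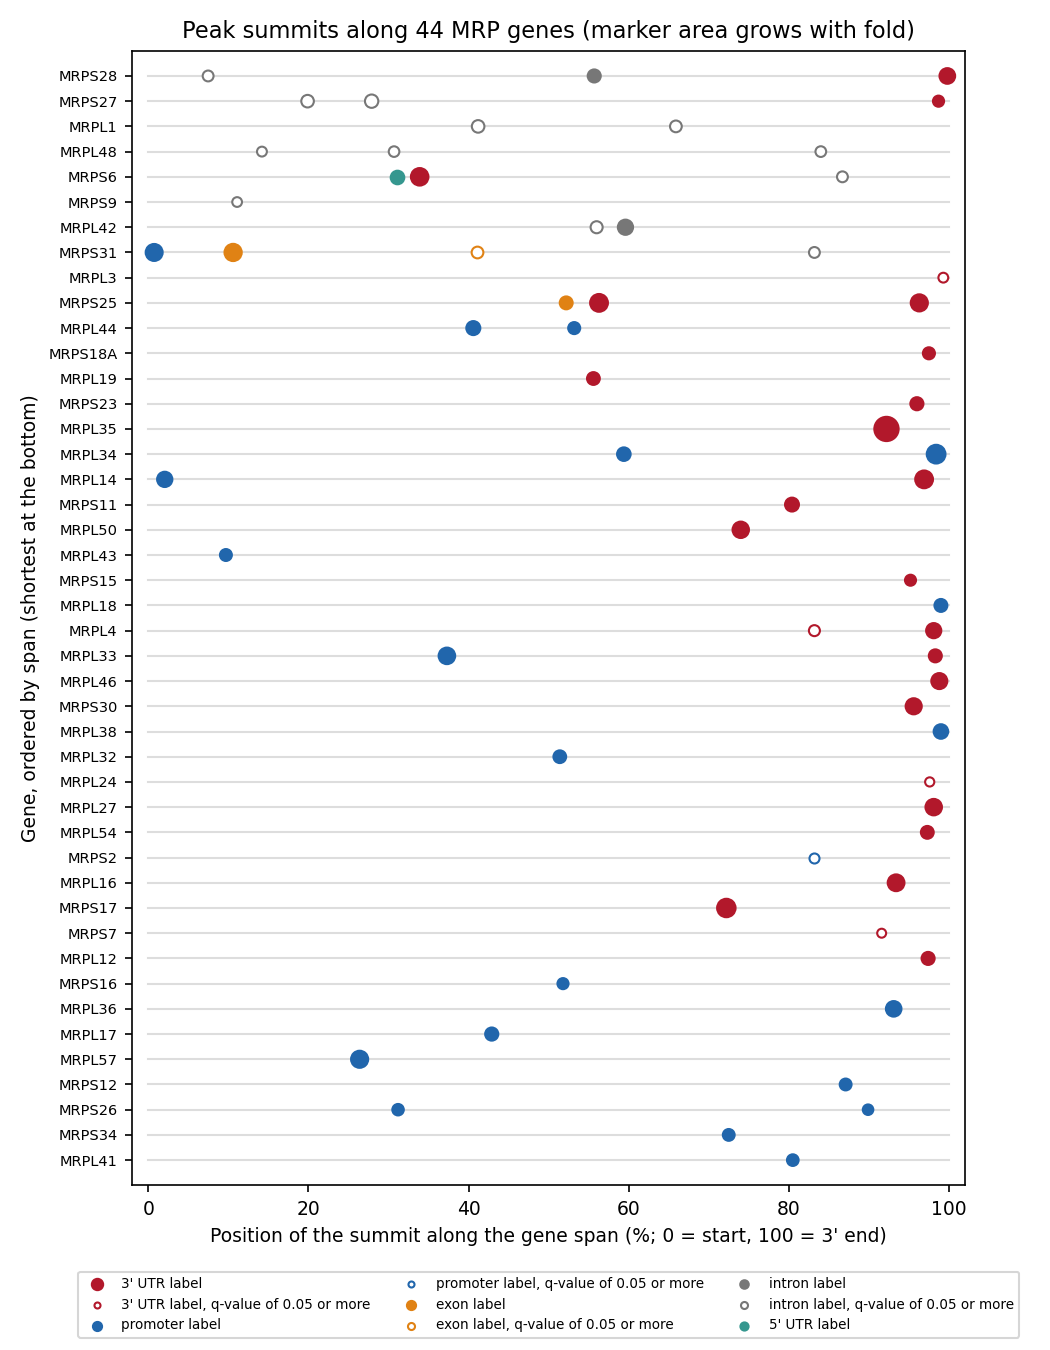
Position of each peak summit along the span of its gene (0% at the start, 100% at the 3' end) for 44 mitochondrial ribosomal protein genes, ordered by span. Colours give the deposited region label, open markers a q-value of 0.05 or more, and marker area grows with fold. Of the 65 summits, 32 lie in the last 20% of the span and 8 in the first; MRPL10 is left out because its strand was not in the tables used.

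A summit within 1 kb of the 3' end and a q-value under 0.05 were found together in 22 genes, with folds from 2.17 (MRPS26) to 8.30 (MRPL34). Such summits made up 46.8% of the 47 member peaks with that q-value and a known strand, against 11.4% over all protein-coding genes. In genes with a span under 20 kb the shares were 55.6% and 30.5%. The share of all protein-coding genes with such a peak was not computed. The closest member summit was in MRPL38, 60 bp from the end, followed by MRPL18 at 88 bp, MRPL46 at 97 bp, MRPL27 at 101 bp and MRPL12 at 107 bp. The deposited labels called 14 of the 22 member peaks 3' UTR and 8 promoter. A promoter label here reaches up to 3 kb from any transcript start and takes precedence over the others. In genes as short as MRPL41 (677 bp) and MRPS34 (1240 bp) the whole transcript lies within that reach, and the MRPL38 and MRPL18 peaks were labelled for the starts of the neighbours TRIM65 and PNLDC1.

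By the deposited labels, 26 of the 66 peaks (39.4%, 28.5 to 51.5) were in 3' UTRs, 22 (33.3%, 23.2 to 45.3) at promoters, 14 (21.2%, 13.1 to 32.5) in introns, 3 in exons and 1 in a 5' UTR. Over all peaks in protein-coding genes these shares were 18.8% for 3' UTRs, 15.0% for promoters, 44.4% for introns and 18.1% for exons. None of the intervals for 3' UTR, promoter and intron labels holds the background, nor does that for exons (1.56 to 12.5), though peaks of 1 gene are not independent. At a q-value under 1e-5 the 3' UTR interval did hold it, with 50% (33.2 to 66.8) against 34.2%. Members have shorter spans than all protein-coding genes (medians of 8618 bp and 24115 bp). Label shares for genes of like span are not given here, and the part of span in these shares was not tested. The median fold of members was 4.74 under 3' UTR labels, 3.68 under promoter labels and 2.60 in introns. The 3' UTR and promoter peaks had medians of 46.5 and 56.5 fragments, whereas the intron peaks had 3.5.

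A peak overlapped the RefSeq promoter window (250 bases before to 50 after a start) of 2 of the 69 members that have one in the table used (2.9%, 0.799 to 9.97), near the background of 3.90% of 15843 protein-coding genes. The 5' peak of MRPL14 (chromosome 6, 44127081 to 44127376), of fold 5.29 (3.13 to 8.51, 14 fragments), covered 118 bases of a window, in a stretch that also belongs to TMEM63B on the opposite strand. Those bases were searched on both strands for GGACT, a frequent form of the m6A consensus, and it occurred once, on the strand of TMEM63B and not on that of MRPL14. It is shown from RefSeq (GRCh38.p14, plus strand, chr6:44127299-44127328) because the strand of this peak is not given, with the match in capitals.
MRPL14 and TMEM63B: aggagggaatgaGGACTtaacgcccacccc
On either strand, 44.2% of all 300-base promoter windows hold this motif, so the match is a description. In the window of MRPL43 a peak of fold 8.96 (7.60 to 10.5, 152 fragments) covered 149 bases without a match, but its summit lay outside MRPL43, towards TWNK, the gene of the mitochondrial DNA helicase, for which the deposited table names it.

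Neighbouring and nested genes bore on several members. Of the 66 summits, 9 lay in the body of another protein-coding gene too (3 of them in MRPS28, which the readthrough gene TPD52-MRPS28 covers). Over all 30222 peaks in protein-coding genes, 1272 did. Once these were set aside, 43 members (55.8%, 44.7 to 66.4) kept a peak of any q-value, against 44.9% of all protein-coding genes, a share the interval holds. With a q-value under 0.05, 35 members kept one, and the background at that setting is not given here. Non-coding genes were not counted here, such as DNAJC9-AS1 at the summit in MRPS16 and LOC101928525 at that in MRPS2. MRPS6 is the clearest case. Its peaks of fold 7.18 (5.78 to 8.82) and 4.05 (2.80 to 5.70) on chromosome 21 lay where the span also belongs to SLC5A3, a myo-inositol transporter gene, and were labelled 3' UTR and 5' UTR. The third MRPS6 peak was an intron peak of 3 fragments with a q-value of 1.

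The deposited table, which names the gene with the nearest transcript start, gave 83 peaks to these genes, of which 48 (57.8%) had their summit in the named gene. The other 35 lay outside it, 28 of them in another protein-coding gene. In turn, 18 of the 66 peaks in members' bodies were named for another gene, among them those of MRPL50 (named for BAAT), MRPS34 (NME3), MRPS15 (OSCP1) and MRPL10 (OSBPL7). The corresponding shares over the peaks of all protein-coding genes are not given here, so these counts are not set apart as a trait of the family. Both assignments gave a peak to 34 members, the gene body alone to 11 and the deposited name alone to 9, while 23 had none by either. By the deposited name 43 members (55.8%) had a peak, against 49.2% of all protein-coding genes.

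Some strong peaks named for members thus lay in other genes. MRPS10 was named for 7 peaks, all in TRERF1, a transcriptional regulator gene, with a highest fold of 7.88 (5.18 to 11.6), and had none of its own. The 2 peaks named for MRPL58, the gene of a peptidyl-tRNA hydrolase that frees stalled mitochondrial ribosomes, lay in CDR2L, the stronger with a fold of 7.46 (6.28 to 8.80). MRPL28 was named for a peak of fold 6.82 (5.53 to 8.32) in PGAP6, and MRPL53 for one of 7.22 (5.07 to 10) in CCDC142. A peak of fold 6.63 (5.23 to 8.30) named for MRPS24 lay in URGCP and the readthrough gene URGCP-MRPS24, and 3 named for MRPS18C lay in ABRAXAS1. The highest fold of any peak named for a member but lying outside it was 9.26 (7.35 to 11.5), in RBSN and named for MRPS25.

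The 32 members without a summit in their body were 22 MRPL and 10 MRPS genes. Besides MRPL28, MRPL53, MRPL58, MRPS10, MRPS18C and MRPS24, the table named MRPL30, MRPL55 and MRPS22 for peaks labelled downstream or intergenic, on 3 or 4 fragments. The 23 with none by either assignment were MRPL2, MRPL9, MRPL11, MRPL13, MRPL15, MRPL20, MRPL21, MRPL22, MRPL23, MRPL37, MRPL39, MRPL40, MRPL45, MRPL47, MRPL49, MRPL51, MRPL52, MRPS5, MRPS14, MRPS18B, MRPS21, MRPS33 and MRPS35. Members with and without a peak had median spans of 8270 bp and 10762 bp. How much RNA the genes without a peak had is not given by a peak list, so no peak does not mean no m6A.

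MRPL and MRPS genes were also set side by side. The shares with a peak were 27 of 49 (55.1%, 41.3 to 68.1) and 18 of 28 (64.3%, 45.8 to 79.3), with overlapping intervals. At a q-value under 0.05 they were 46.9% (33.7 to 60.6) and 53.6% (35.8 to 70.5). The median highest fold was 4.35 (quartiles 3.49 to 6.24) for MRPL and 3.38 (2.54 to 5.87) for MRPS genes, and this difference was not tested.

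Genes of the same organelle and of the other ribosome differed from this family in how often they held a peak. The 88 cytosolic ribosomal protein genes were chosen by symbol, which takes in tissue-specific paralogs and genes of like name such as RPL7L1 and RPL26L1. Of these 88, 9 (10.2%, 5.47 to 18.3) held a peak, led by RPL31 with a fold of 7.44 (6.29 to 8.75) and RPL7L1 with 4.87 (4.03 to 5.84). Of 86 respiratory chain and ATP synthase subunit genes, 18 (20.9%, 13.7 to 30.7) did, led by NDUFA10 with 6.98 (3.99 to 11.6) and UQCR10 with 6.02 (4.29 to 8.24). Neither interval meets that of the mitochondrial ribosomal protein genes (47.3 to 68.8). At a q-value under 0.05 the shares were 9.09% (4.68 to 16.9) and 12.8% (7.29 to 21.5), against 49.4% (38.5 to 60.3). The median spans were 5092 bp and 8608 bp, the latter close to the 8618 bp of the family, but the lists were not matched on expression, whose part in the difference was not tested.

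**Figure D3:**
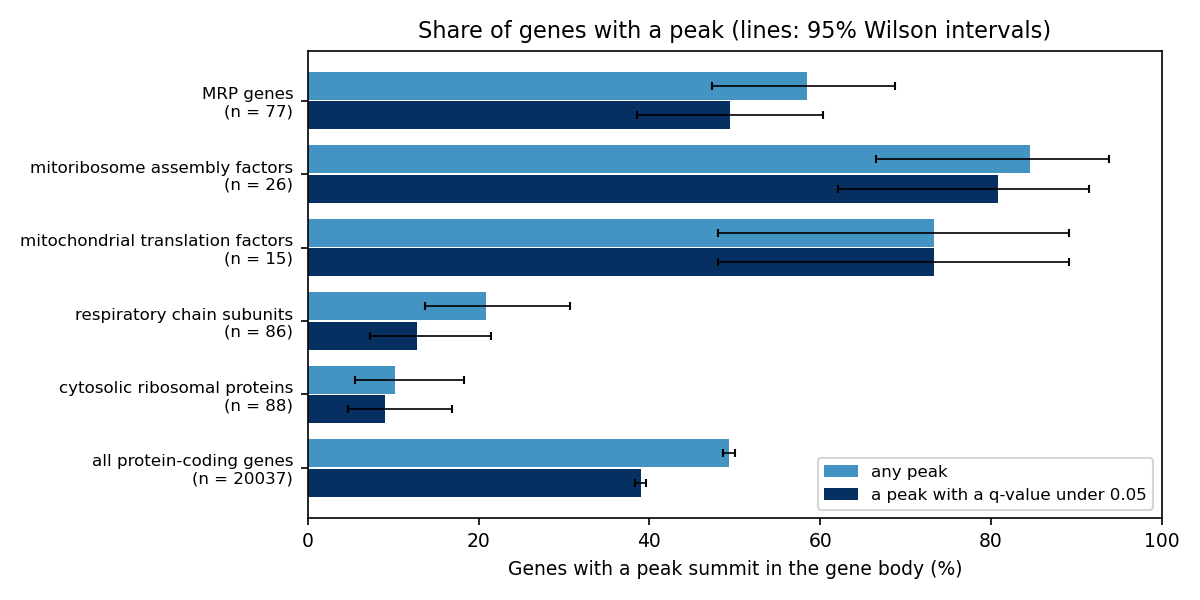
Share of genes with a peak summit in the gene body for the mitochondrial ribosomal protein (MRP) genes and 4 other lists, beside all protein-coding genes. Light bars count any peak, dark bars a peak with a q-value under 0.05, and lines are 95% Wilson intervals. MRP genes stand at 58.4%, respiratory chain subunits at 20.9% and cytosolic ribosomal proteins at 10.2%.

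The proteins that build and serve the mitochondrial ribosome were also often encoded by genes with peaks. Of 26 assembly factor genes, 22 (84.6%, 66.5 to 93.8) held one, led by TFB1M, a methyltransferase for the small ribosomal RNA, at 9.37 (6.77 to 12.7) and RBFA, a factor for small-subunit maturation, at 8.71 (7.16 to 10.5). Of 15 mitochondrial translation factor genes, 11 (73.3%, 48.0 to 89.1) did, led by TACO1, an activator of COX1 translation, at 11.2 (8.34 to 14.8) and MTRFR, a ribosome rescue factor, at 9.40 (6.89 to 12.5). For any peak these intervals overlap that of the family. At a q-value under 0.05, the assembly factors stood at 21 of 26 (80.8%, 62.1 to 91.5), above the family's interval (38.5 to 60.3), and the translation factors again at 11 of 15. Their genes are longer, with median spans of 21378 bp and 25047 bp. A peak lay in 49.3% of all protein-coding genes and in 56.2% of those with a span from 20 to 50 kb. The translation factor interval holds both of these shares, while that of the assembly factors lies above them. At a q-value under 0.05 the 2 backgrounds were 39.0% and 44.7%, below the intervals of both lists. Among 5 mitochondrial ribosomal proteins with other names, PTCD3 (5.08, 3.34 to 7.46), DAP3 (4.76, 3.92 to 5.72) and GADD45GIP1 held a peak, and AURKAIP1 and CHCHD1 did not.

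Gene span separated the family from the background most clearly among short genes. Under 5 kb, 14 of 22 members (63.6%) held a peak, compared with 19.9% of 3196 protein-coding genes and 2 of 40 cytosolic ribosomal protein genes (5%). From 5 to 10 kb the shares were 63.2% of 19 members and 32.9% of all genes, and from 10 to 20 kb 50% of 18 and 43.1%. From 20 to 50 kb the shares were 4 of 11 members (36.4%) and 56.2%. No intervals were computed for these classes, and those of longer spans hold few members. The classes were not matched on expression, whose part was not tested. Of the 7 members of 50 kb or more, 6 (85.7%) held a peak against 68.9% of all genes, and 3 (42.9%) held one with a q-value under 0.05 against 54.1%.

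**Figure D4:**
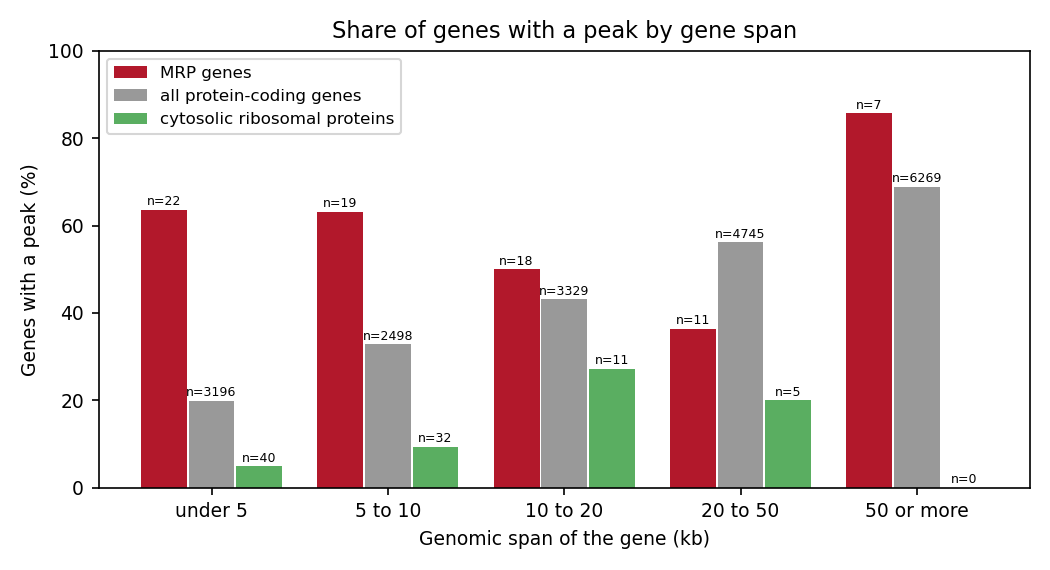
Share of genes with a peak in 5 classes of genomic span, for mitochondrial ribosomal protein (MRP) genes, all protein-coding genes and cytosolic ribosomal protein genes. The number above each bar is the number of genes. Under 5 kb, 63.6% of MRP genes and 19.9% of all protein-coding genes held a peak, while from 20 to 50 kb the shares were 36.4% and 56.2%.

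Fold and input level were read together, because the caller adds 1 to both sides of the ratio, which lowers folds where input is low. At an input level of 2 to 5 fragments, the 11 member peaks had a median fold of 5.89 (quartiles 4.63 to 6.58) against 4.26 (3.25 to 5.72) for all peaks in protein-coding genes. At 5 to 10 it was 4.74 (3.35 to 6.99) against 4.01 (3.07 to 5.50). At 10 to 20, where 16 member peaks lay (24.2%, against 6.75% of all), it was 2.95 (2.47 to 3.69) against 3.47 (2.68 to 4.47). The member median was thus above that of all peaks in the first 2 of these classes and below it in the last, on 11 to 16 peaks a class and with no test. In the remaining classes the medians lay close together. They were 2.60 against 2.69 at a level under 0.5, 4.15 against 4.03 at 0.5 to 2, and 2.49 against 2.52 at 20 or more.

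**Figure D5:**
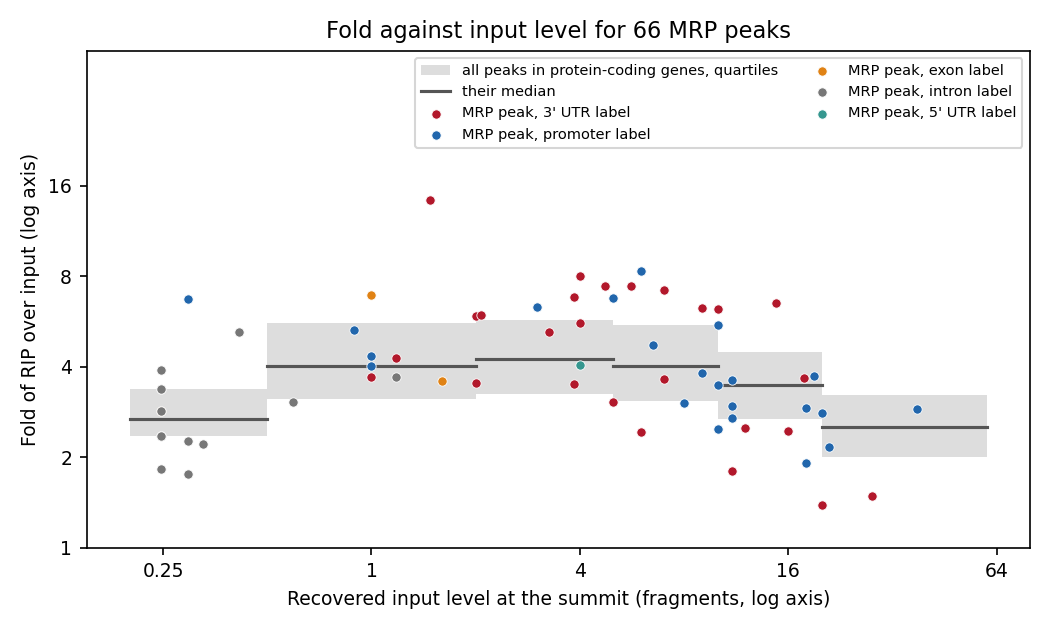
Fold of RIP over input against the recovered input level (both log axes) for the 66 peaks in mitochondrial ribosomal protein (MRP) genes, coloured by region label. The level is the caller's expected value for the summit, not a count of input fragments. Grey bands and lines give the quartiles and median of all peaks in protein-coding genes within 6 classes of input level; the last class is open-ended and drawn to a fixed width. Most intron peaks sit at an input level under 0.5, and at 10 to 20 the member median is 2.95 against 3.47.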

How the data were processed

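m6A was captured from HCCLM3 RNA, and RIP and input libraries were made with a stranded total RNA kit, per the labels. The submitters' processing notes name HISAT2, MACS2 and the build hg38. For versions, peak threshold and duplicate removal, nothing was given in the sources used here. Per the file headers, the fold is the authors' ratio of RIP to input. The names of the −log10 p-value and −log10 q-value columns of the deposited table are damaged, and both were recognised from the values, since 99.99% of the deposited scores are 10 times the former, rounded down. Of 39824 peak numbers, 39801 peaks were used here.

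Summits (start plus offset) were set against spans of RefSeq genes of GRCh38.p14 (the hg38 assembly). Total depth is not stated. RIP fragments and input levels were recovered by taking the fold as (scaled fragments + 1) over (input level + 1) and deriving p from a Poisson distribution. Scaling the RIP library by 0.642, whole numbers met both values for 100% of peaks within 0.001 on the −log10 scale, and for 98.2% only 1 did. The recovery was tested on simulated data. Python 3.11.15, pandas 2.3.3 and scipy 1.17.1 were used. Members, lists and thresholds were chosen with earlier results of these data known. Every member with a peak is named, and from each other list the 2 genes of highest fold. Strands came from RefSeq promoter windows, or else from the deposited table. Alternatives varied the threshold, depth, region labels, overlap and gene assignment.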

Additional observations from a re-analysis of the deposited data

How the results depend on the processing

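The count of 45 mitochondrial ribosomal protein genes with a peak became 27 at a q-value under 1e-5, 25 with exon or UTR labels only and 21 where the fold had to reach 4. In the background of all protein-coding genes these settings gave 28.5%, 33.1% and 30.9%, against 35.1%, 32.5% and 27.3% of members, so the members' share stood above the background in the first and below it in the others. It was 39.0% against 46.6% (30 genes) when the whole peak had to lie within the gene, which sets aside peaks that cross a gene's end. The other alternatives gave 38 to 45 genes, within 1.5 times. The widest gap from the background was at 10 or more RIP fragments, with 42 genes (54.5%) against 39.3%. The median highest fold rose from 3.82 to 5.89 at a q-value under 1e-5. Under the deposited gene names it was 5.21 against 4.53 for all genes, which turns the order given by the gene body (3.82 against 4.73). The share of exon and UTR labels was 45.5% and stayed between 43.9% and 53.3%; it was above that of all genes' peaks over all peaks (38.4%) and below it at a q-value under 1e-5 (53.3% against 63.9%). Leaving out summits shared with another protein-coding gene was chosen after seeing the data for the fold (3.74) and the label share (43.9%). No paired analysis was possible because each library had no replicate. Depth limits the intron peaks most, since 12 of 14 rested on at most 6 fragments.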

Other observations

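RefSeq lists 106 pseudogenes of mitochondrial ribosomal protein genes on the main chromosomes, from 41 of the 77 members. A summit lay in the span of 2 of them (1.89%, 0.519 to 6.62), where 4.46% of all 17051 RefSeq pseudogenes held one, and the interval holds that share. These were MRPS31P5 and MRPL45P2, with folds of 2.26 (1.08 to 5.11) and 2.35 (1.12 to 5.32), each on 3 fragments and with a q-value of 1. How reads were shared between a gene and its copies is not given in the sources used here, and 19 of the 45 members with a peak have such a copy.

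Members whose number follows bacterial ribosomal proteins (up to 36 for MRPL and 21 for MRPS) were set beside those of higher number, most of which have no bacterial counterpart. A peak lay in 27 of 44 (61.4%, 46.6 to 74.3) and in 18 of 33 (54.5%, 38 to 70.2), and the intervals overlap. The median highest fold was 3.68 (quartiles 2.70 to 6.30) and 4.55 (3.11 to 5.95).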
